A study of Mus musculus with 17 samples.

Results

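Metallothioneins, zinc transporters and the zinc-sensing factor Mtf1 were examined as a set of 8 genes in RNA-seq libraries of mouse bile duct. The genes were Mt1, Mt2, Mtf1, Slc30a1, Slc30a2, Slc39a4, Slc39a8 and Slc39a14, taken by gene name from the 43346 genes of a count table, and all 8 were present. The study is on extrahepatic cholangiocarcinoma, a cancer of the large bile ducts, and its 17 samples are labelled as bile duct tissue of the mouse, from which total RNA was extracted. No genotype, strain, treatment, time, sex or age is given in the labels, so no groups of the study could be compared. The 17 count columns carry 6 codes (R62848, R62850, R63289, R63494, R63496 and R63500), each followed by a running number. 5 codes have 3 libraries and R63494 has 2. The sources used here do not give what a code stands for, and no code could be tied to a group of the study. The question that could be put to the table was whether libraries of 1 code differed from those of the others by more than libraries within a code. Nothing says whether libraries of 1 code come from separate animals, so p-values measure the spread between these libraries, which may be technical.

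Metallothioneins are small cysteine-rich proteins that bind zinc and copper, and their genes are induced by metals, glucocorticoids and inflammatory signals. Mtf1 encodes the transcription factor that senses free zinc and binds metal response elements in the promoters of Mt1, Mt2 and Slc30a1. Transporters of the SLC30 (ZnT) family move zinc out of the cytosol, to the outside or into vesicles, and those of the SLC39 (ZIP) family move it into the cytosol.

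Mt1 and Mt2 lie side by side on chromosome 8 (mm10), on the plus strand, with 5521 bases between the end of Mt2 and the start of Mt1. Their coding sequences in the GENCODE M21 annotation are shown to make clear how alike the genes are whose reads are compared here. Capitals mark the bases at which they differ.
Mt1 coding sequence: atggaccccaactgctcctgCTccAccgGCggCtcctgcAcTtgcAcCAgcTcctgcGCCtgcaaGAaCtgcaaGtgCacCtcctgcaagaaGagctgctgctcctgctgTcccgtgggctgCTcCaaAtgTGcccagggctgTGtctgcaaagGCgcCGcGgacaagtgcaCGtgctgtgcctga
Mt2 coding sequence: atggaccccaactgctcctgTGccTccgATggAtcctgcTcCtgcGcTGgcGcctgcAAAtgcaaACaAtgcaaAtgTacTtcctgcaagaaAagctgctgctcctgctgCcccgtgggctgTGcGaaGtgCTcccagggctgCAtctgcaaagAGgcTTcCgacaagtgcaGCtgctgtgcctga
Each has 186 bases in 61 codons and a stop, and 20 of the codons in each encode cysteine. Of the 186 positions, 148 (79.6%) are identical and 38 differ, and the longest run shared without a difference is 20 bases. The sources used here do not say how reads that fit more than 1 gene were counted.

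The 250 bases before the RefSeq start of each gene, from the RefSeq promoter table (GRCm38.p6, the assembly of mm10), are shown because Mtf1 is known to bind both promoters. Capitals mark matches to the core of the metal response element, searched as TGCACNC and TGCGCNC on both strands.
Mt1, chr8:94178839-94179088, plus strand: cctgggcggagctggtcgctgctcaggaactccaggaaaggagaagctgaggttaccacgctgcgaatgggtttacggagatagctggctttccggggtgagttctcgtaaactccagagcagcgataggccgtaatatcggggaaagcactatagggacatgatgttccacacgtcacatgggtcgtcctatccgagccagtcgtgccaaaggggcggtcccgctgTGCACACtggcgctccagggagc
Mt2, chr8:94172368-94172617, plus strand: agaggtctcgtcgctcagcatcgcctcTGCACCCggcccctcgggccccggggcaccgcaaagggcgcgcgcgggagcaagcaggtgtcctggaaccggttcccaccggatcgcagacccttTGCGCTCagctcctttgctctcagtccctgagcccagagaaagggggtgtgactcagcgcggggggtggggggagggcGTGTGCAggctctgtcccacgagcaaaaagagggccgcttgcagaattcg
With the 50 bases after the start included, the 300-base window held 3 positions with a match in Mt1, of which 1 lies upstream, and 4 in Mt2, of which 3 lie upstream. The windows of Slc30a1 and Slc30a2 held 2 each, that of Mtf1 none, and those at the 2 starts of Slc39a8 held none and 1. Among 32851 windows of the table, 25.7% held at least 1 match, 7.11% at least 2, 1.97% at least 3 and 0.517% at least 4. A match describes letters, not a site that is bound. GENCODE M21 also lists Mt1 transcripts that start at positions 94179211 and 94179241, for which this window is not the adjoining upstream sequence. Windows were found for 6 of the 8 genes, and none for Slc39a4 and Slc39a14. Among those 6, Mt2 and Mt1 held the most matches.

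Libraries held 16400556 to 24152314 counts, with a median of 17886041. Cholangiocyte markers summed to 7357 to 10248 CPM (counts per 1000000, with TMM factors) and none of the 10 was at 0 in any library. In bulk tissue, fewer cells of a type and less RNA per cell cannot be told apart. The 3 libraries of code R62850 stood apart by acinar enzyme genes of the exocrine pancreas: the summed CPM of 12 acinar markers was 6138, 24302 and 138982 there, with none at 0. In the other 14 libraries that sum was 40.0 to 158. Of 8 fibroblast markers, the summed CPM was 9976 to 10712 in R62848 and 9519 to 11568 in R63500, and 2695 to 6305 in the other codes. Most of the fibroblast sum was Col1a1, Col1a2 and Col3a1. Of these markers Dcn alone was not highest in both R62848 and R63500. Its code mean was 815 CPM in R62848 and 584 in R63500, against 506 to 721 in the others. The marker sums are repeated below where a gene of the set moved with them.

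All 8 genes passed the filter on low counts. A quasi-likelihood test in edgeR called 7 of the 8 different between codes (adjusted p below 0.05), and Mtf1 was not called. In the same test 42.2% of the 19412 genes tested were called, so calls of this kind were common in the table as a whole. The median range of code means was 1.06 on the log2 scale over the 8 genes and 0.71 over all genes tested, and the median SD within codes was 0.22 and 0.23. The wide ranges belonged to Mt2, Slc30a2, Mt1 and Slc39a14. Mtf1, Slc39a4, Slc30a1 and Slc39a8 each spanned less than 0.8.

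**Figure D1:**
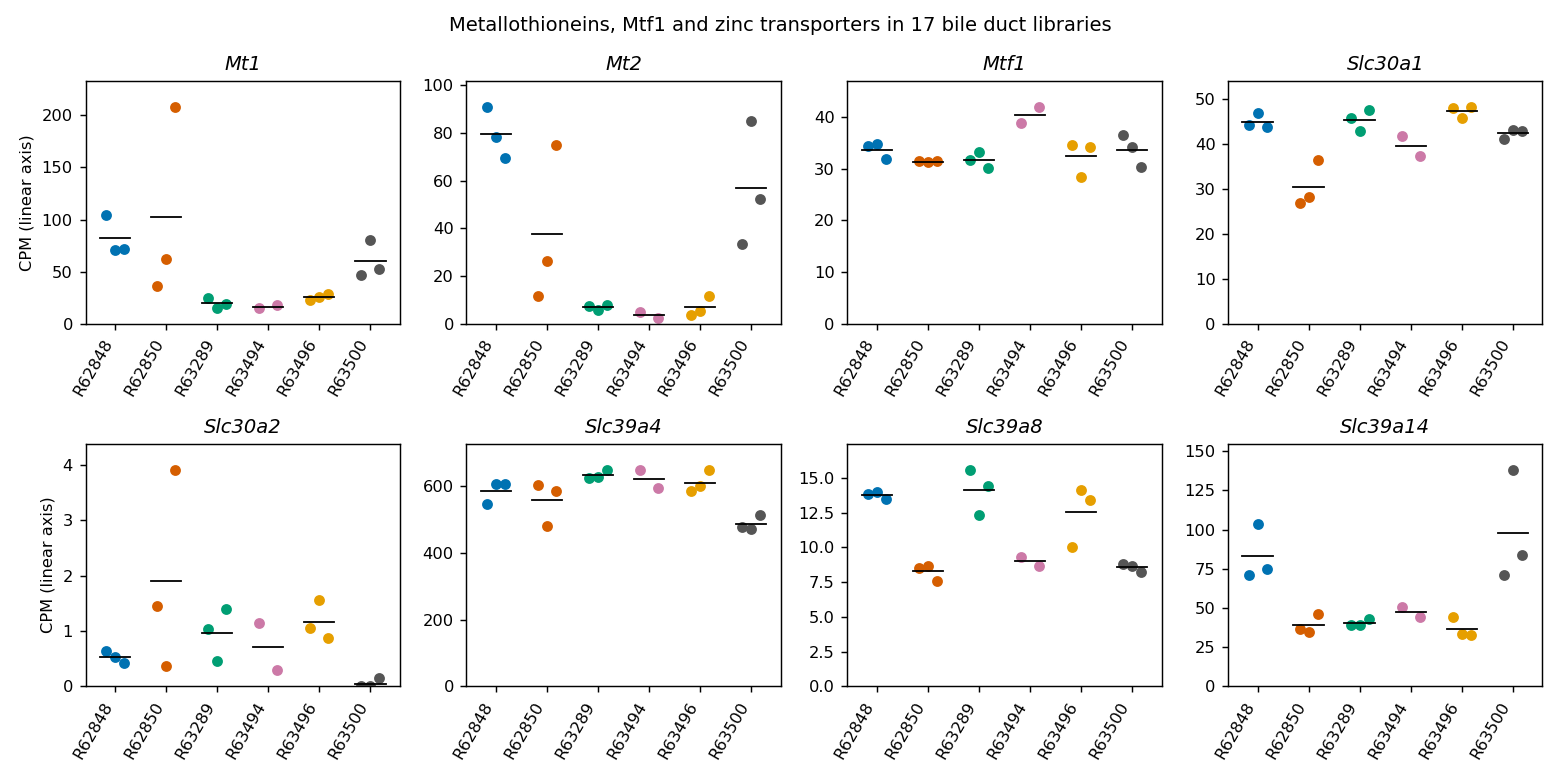
CPM of the 8 genes (linear axes from 0, 1 panel per gene) in each of the 17 libraries, by header code; points are libraries and horizontal lines code means. Mt2 spans 2.28 to 90.9 CPM across libraries, whereas Mtf1 stays between 28.3 and 41.9 and Slc39a4 between 470 and 648.

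Mt1 (ENSMUSG00000031765, chr8:94179089-94180325, plus strand), a ubiquitous metallothionein, varied 13.5-fold between libraries. Its CPM was 104, 70.9 and 71.7 in R62848, and 35.8, 62.5 and 208 in R62850. It was 46.4, 80.1 and 52.9 in R63500, and 22.4, 25.4 and 28.4 in R63496. It was 24.4, 15.6 and 19.1 in R63289, and 15.4 and 17.8 in R63494. R62848, R62850 and R63500 were high and R63289, R63494 and R63496 low, and no library of the first 3 codes overlapped the other 3. Mt1 differed between codes (edgeR adjusted p = 0.00743). Against the mean of the other codes it was higher in R62850 by 1.61 (log2, SE 0.36, edgeR adjusted p = 0.00886) and in R62848 by 1.24 (SE 0.37, edgeR adjusted p = 0.0316). The R62850 value rested on 1 library: without R62850_3 it was 0.57 (edgeR adjusted p = 0.102). That library also held the largest acinar sum, 138982 CPM, against 6138 and 24302 in the other 2 of its code, in the order of their Mt1 values. The part of acinar tissue in the Mt1 level was not tested. The R62848 call was lost without any 1 of its 3 libraries (1.04 to 1.34, edgeR adjusted p from 0.0755 to 0.132) and without either R63494 library (edgeR adjusted p = 0.0549 and 0.0541).

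Mt2 (ENSMUSG00000031762, chr8:94172618-94173567, plus strand), the other ubiquitous metallothionein, had the wider range, 39.8-fold. Its CPM was 90.9, 78.3 and 69.4 in R62848 and 33.4, 85.0 and 52.2 in R63500. In R62850 it was 11.6, 26.3 and 75.0, so that code reached from the low libraries to the high ones. It was 7.57, 5.86 and 7.80 in R63289, 3.68, 5.26 and 11.6 in R63496, and 4.91 and 2.28 in R63494. R62848 and R63500 lay above all 8 libraries of R63289, R63494 and R63496. Mt2 differed between codes (edgeR adjusted p = 0.00113). It was 2.62 higher on the log2 scale in R62848 (SE 0.41, edgeR adjusted p = 0.000837), a call that held without any 1 library. In R63500 it was 2.04 higher (SE 0.43, edgeR adjusted p = 0.00553), but without R63500_2 the difference was 1.63 and the adjusted p 0.0642. R63494 was lower (-2.79, SE 0.76, edgeR adjusted p = 0.0269), a call lost when either of its 2 libraries was left out (edgeR adjusted p = 0.0966 and 0.220). R62848 and R63500 also held the highest fibroblast marker sums, 9519 to 11568 CPM against 2695 to 6305 elsewhere. The part of fibroblasts in the Mt2 difference was not tested. GENCODE M21 places an antisense gene, Gm45774, over 795 bases of Mt2, and the sources used here do not say whether counting used strand. Overlaps here and below are between whole gene spans, introns included, and exons were not compared.

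The balance of the 2 metallothioneins needs no scaling between libraries, and it too followed the codes. Mt1 made up 53.4%, 47.5% and 50.8% of the counts of both genes in R62848, and 58.1%, 48.5% and 50.3% in R63500. In R62850 the share was 75.6%, 70.4% and 73.5%, and in R63289 76.3%, 72.7% and 71.0%. It was 75.8% and 88.6% in R63494 and 85.9%, 82.8% and 71.1% in R63496. R62848 and R63500 lay near equal shares and below every other library. The 95% Wilson interval was 85.4% to 91.2% for the highest share and 45.7% to 49.4% for the lowest, and it covers counting error only. Codes accounted for 89.7% of the variance of the share (permutation test, 100000 resamples, p = 0.00019). The shares of R62850 and R63289 overlapped, although R62850 had more of both genes. Both genes together were a small part of each library, 20.0 to 283 CPM, or 0.00193% to 0.0240% of its counts.

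**Figure D2:**
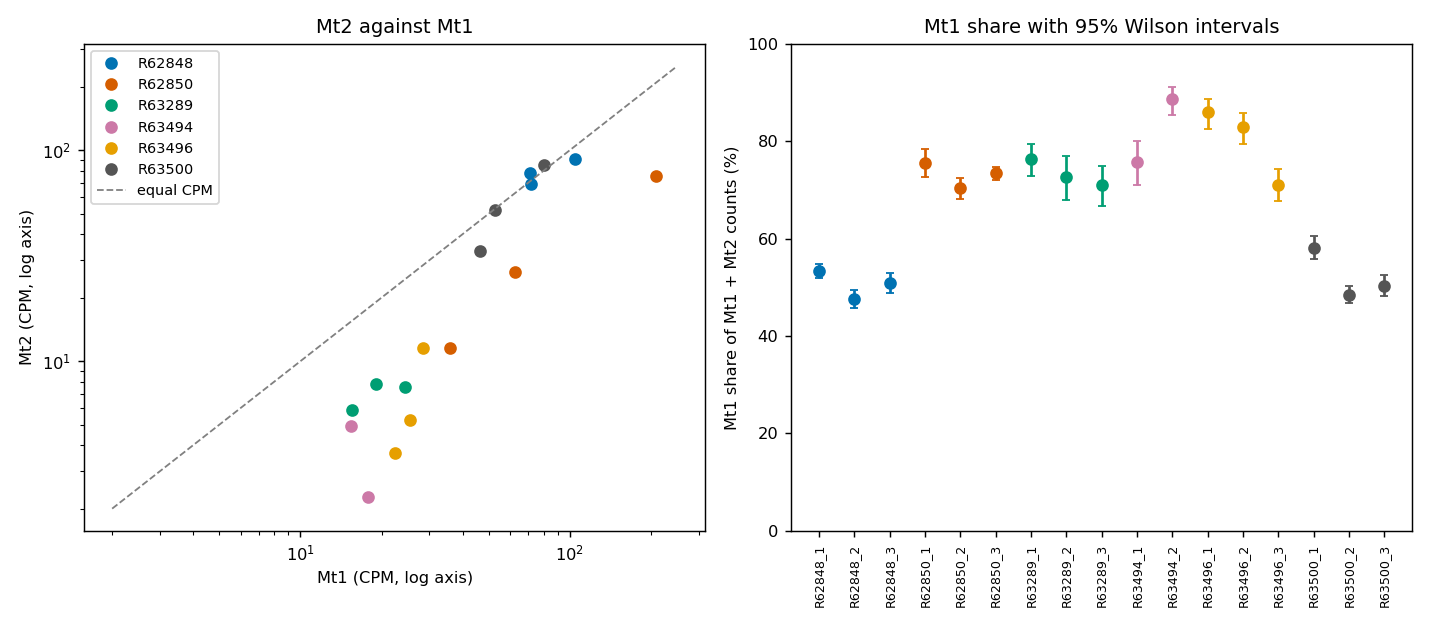
Mt2 against Mt1 in CPM (both log axes; the dashed line marks equal CPM) and the Mt1 share of the counts of both genes, in percent with 95% Wilson intervals, for the 17 libraries by code. R62848 and R63500 lie between 47.5% and 58.1% Mt1, and the other 4 codes between 70.4% and 88.6%.

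Over libraries of the same code, Mt1 and Mt2 deviated together (Pearson r of log2 CPM after removing code means = 0.829, exact permutation p = 0.00399, Spearman rho = 0.738, exact permutation p = 0.00322). Adjusted over the 28 pairs of the set, these were 0.0711 and 0.0828, so the pair did not pass, and none of the 28 did (4 had an exact unadjusted p under 0.05 for r). Without the 2 libraries farthest from the median, r was 0.570, and without the R62850 libraries it was 0.581 (exact permutation, adjusted p = 0.331). Over the 6 code means r was 0.942 and rho 0.886 (exact permutation p = 0.0292 and 0.0333, adjusted 0.389 and 0.467), and r was 0.888 without the 2 farthest codes. Slc30a1, whose promoter also holds metal response elements, had r = 0.799 with Mt2 within codes (exact permutation p = 0.00862, adjusted 0.0804) and -0.143 over code means. Without the R62850 libraries that pair had r = 0.554 within codes and 0.150 over the 5 remaining code means, so the negative value rested on that code.

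Mtf1 (ENSMUSG00000028890, chr4:124802104-124849800, plus strand), the zinc sensor, had the narrowest range of code means of the set (0.36 on the log2 scale), just below Slc39a4 (0.38). Its CPM was 38.7 and 41.9 in R63494 and 28.3 to 36.5 in the other 15 libraries, which did not overlap R63494. The test between codes did not call it (edgeR adjusted p = 0.115). Taken alone, R63494 was higher by 0.31 (log2, SE 0.093, edgeR adjusted p = 0.0256), a call lost with library totals in place of TMM factors (0.27, edgeR adjusted p = 0.0920). It was also lost with no filter on low counts (edgeR adjusted p = 0.0530) and without either R63494 library (edgeR adjusted p = 0.0761 and 0.237). R63494 was also the code with the highest summed CPM of 10 heat shock genes, 6154 and 6535 against 1598 to 5216 elsewhere. The same code had the lowest Mt2. R63289 and R63496, also low in Mt2, had instead the lowest heat shock sums, 1763 to 1834 and 1598 to 1906 CPM. A relation of heat shock genes to Mtf1 or Mt2 was not tested. Mtf1 shares 721 bases with 1110065P20Rik on the other strand and 119 bases with the rRNA gene n-R5s192 on its own strand.

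Slc30a1 (ENSMUSG00000037434, chr1:191906767-191913247, plus strand) encodes ZnT1, the zinc exporter of the plasma membrane. Its CPM was 26.8, 28.2 and 36.3 in R62850 and 37.3 to 48.2 in the other 14 libraries. R62850 was the low code, without overlap, at -0.53 against the mean of the other codes (log2, SE 0.085, edgeR adjusted p = 0.000203). The call held without any 1 library, while the test between codes was lost without R62850 (edgeR adjusted p = 0.132, from 0.000644 with it). R62850 is the code with 6138 to 138982 CPM of acinar markers, whose part in the lower Slc30a1 was not tested. Among its 3 libraries the highest acinar sum went with the highest Slc30a1. Mt1 was higher in this code, a call that rested on R62850_3, but among its 3 libraries Mt1 (35.8, 62.5 and 208 CPM) and Slc30a1 had the same order. The antisense gene 1700034H15Rik overlaps Slc30a1 by 761 bases.

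Slc30a2 (ENSMUSG00000028836, chr4:134343181-134354484, plus strand) encodes ZnT2, which loads zinc into vesicles and is known from pancreatic acinar and mammary cells. It was the rarest gene of the set, with a median of 14 counts per library. The counts were 0, 0 and 3 in R63500, 26, 7 and 58 in R62850, and 14, 10 and 7 in R62848. They were 21, 8 and 25 in R63289, 19 and 7 in R63494, and 19, 28 and 16 in R63496. All 3 R63500 libraries lay below the other 14, and R62850_3 was the highest. The counts of 0 allow up to 0.145 and 0.170 CPM (3 counts each, here over the library total). Pooled by code, R63500 had 0.0523 CPM (exact Poisson 95% interval 0.0108 to 0.153) and R62850 1.68 (1.35 to 2.06), and the intervals cover counting error only. The other codes pooled were 19.6 times R63500, with a counting interval of 6.62 to 95.5. In edgeR, Slc30a2 differed between codes (adjusted p = 0.00976), with R63500 lower (fitted log2 -4.05, SE 0.94, adjusted p = 0.00378) and R62850 higher (1.98, SE 0.55, adjusted p = 0.0136). The fitted value for R63500 depends on the prior count and is no bound. The R62850 call was lost without R62850_3 (0.94, edgeR adjusted p = 0.331), the library with 138982 CPM of acinar markers, whose part was not tested. In R62850_2, with 24302 CPM of acinar markers, Slc30a2 had 7 counts, fewer than in R62850_1 with 6138.

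Slc39a4 (ENSMUSG00000063354, chr15:76612385-76616852, minus strand) encodes ZIP4, the importer through which the intestine takes up dietary zinc. It was the most abundant gene of the set in CPM, with a median of 598, which put it at place 122 of all genes. Its CPM was 477, 470 and 513 in R63500 and 545 to 648 in the other codes, save R62850_2 with 480, which overlapped R63500. R63500 was lower by 0.30 on the log2 scale (-0.30, SE 0.074, edgeR adjusted p = 0.00534), a call that held without any 1 library. The test between codes (edgeR adjusted p = 0.0216) was lost without R63500_1 (0.0819) or R63500_2 (0.0752). Markers of enterocytes, the cell type ZIP4 is best known from, summed to 202 to 284 CPM in all libraries. Nearly all of that sum was Vil1 (161 to 229) and Anpep (20.5 to 62.7), which are not particular to enterocytes. The highest value of the other 8 markers in any library was 9.25 CPM. Rbp2, Fabp2 and Alpi, a retinol-binding protein, a fatty acid-binding protein and the intestinal alkaline phosphatase, were at 0 in 1, 5 and 9 libraries. Each was highest in R62850_1, at 4.06, 8.34 and 9.12 CPM, where Slc39a4 was 603 CPM. The part of enterocytes in the Slc39a4 level was not tested.

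Slc39a8 (ENSMUSG00000053897, chr3:135825279-135888572, plus strand) encodes ZIP8, which takes up zinc and manganese. Its CPM was 13.8, 13.99 and 13.5 in R62848 and 15.6, 12.3 and 14.4 in R63289. It was 8.51, 8.70 and 7.62 in R62850, 8.78, 8.68 and 8.23 in R63500, and 9.34 and 8.65 in R63494. R63496, with 10.02, 14.1 and 13.4, lay with the high codes except for its first library. All 8 libraries of R62850, R63494 and R63500 were below the other 9. Slc39a8 differed between codes (edgeR adjusted p = 0.000582). R62848 (0.43, SE 0.12) and R63289 (0.47, SE 0.12) were higher than the mean of the others on the log2 scale, and R62850 (-0.45, SE 0.13) and R63500 (-0.40, SE 0.13) lower. Their edgeR adjusted p-values were 0.0147, 0.0275, 0.0177 and 0.0366. None of these 4 calls held throughout. Without code R62850, R62848 had an edgeR adjusted p of 0.0646 and R63289 of 0.0681. The R62848 call was lost without R62848_2 (edgeR adjusted p = 0.0772) or R62848_3 (0.0533), and the R62850 call without R62850_1 (0.0544) or R62850_3 (0.0854). The R63289 call was lost without any 1 of its own libraries (edgeR adjusted p from 0.0505 to 0.266) and with no filter (0.0545). The R63500 call was lost without any 1 of its own libraries, R63289_1, R63289_3 or R63496_2 (edgeR adjusted p from 0.0518 to 0.146), with library totals (0.0757) and with no filter (0.0807). In GENCODE M21, the span of Slc39a8 shares 6569 bases with 4933401H06Rik on the other strand. It shares 3845 and 2251 bases with Gm43428 and Gm43429 on its own strand. The span has 63294 bases and the exon length is 7664, so whether these overlaps touch its counts is not known.

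Slc39a14 (ENSMUSG00000022094, chr14:70303469-70351425, minus strand) encodes ZIP14, an importer of zinc, iron and manganese that inflammatory signals induce in the liver. Its CPM was 71.0, 138 and 83.5 in R63500 and 71.1, 103 and 75.1 in R62848. It was 36.6, 34.6 and 46.2 in R62850, 39.4, 39.3 and 42.8 in R63289, and 50.6 and 44.4 in R63494. In R63496 it was 44.5, 33.3 and 33.0. The 6 libraries of R62848 and R63500 lay above all others, and the other 4 codes overlapped. Slc39a14 differed between codes (edgeR adjusted p = 0.000293). On the log2 scale R63500 was higher by 1.05 (SE 0.16, edgeR adjusted p = 0.000357) and R62848 by 0.78 (SE 0.16, edgeR adjusted p = 0.00376), and both calls held without any 1 library. R63496 was lower (-0.63, SE 0.18, edgeR adjusted p = 0.0483), a call lost with RLE factors (0.0530), with library totals (0.0543) and with no filter (0.103). It was also lost without any 1 library of R62850, R63289 or R63494, and without R62848_3, R63496_2 or R63496_3 (edgeR adjusted p from 0.0504 to 0.222). These 2 high codes were those with 9519 to 11568 CPM of fibroblast markers and with high Mt2, and the part of fibroblasts was not tested. Of the acute phase and IL-6 response genes, Il6 and Socs3, the IL-6 feedback inhibitor, were also highest in these 2 codes; both were chosen after their values were seen. Il6 had code means of 5.96 CPM in R63500 and 1.88 in R62848, against 0.114 to 0.911 in the others (edgeR adjusted p = 0.000185 between codes). Socs3 had 63.5 and 50.9, against 27.3 to 43.4 (edgeR adjusted p = 0.0326). No other gene of the list had its 2 highest code means in these codes. Fgg and Fga, with the widest ranges of code means in the list, had 5.87 and 9.11 CPM in R62848 but 0.0543 and 0.321 in R63500. Both were called between codes (edgeR adjusted p = 9.37e-06 and 6.64e-06). The sum of the 12 genes of the list, 6030 to 8800 CPM in the 2 codes and 5776 to 9203 in the others, is mostly Lcn2 (4925 to 7896 CPM). The part of IL-6 signalling in the Slc39a14 level was not tested.

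**Figure D3:**
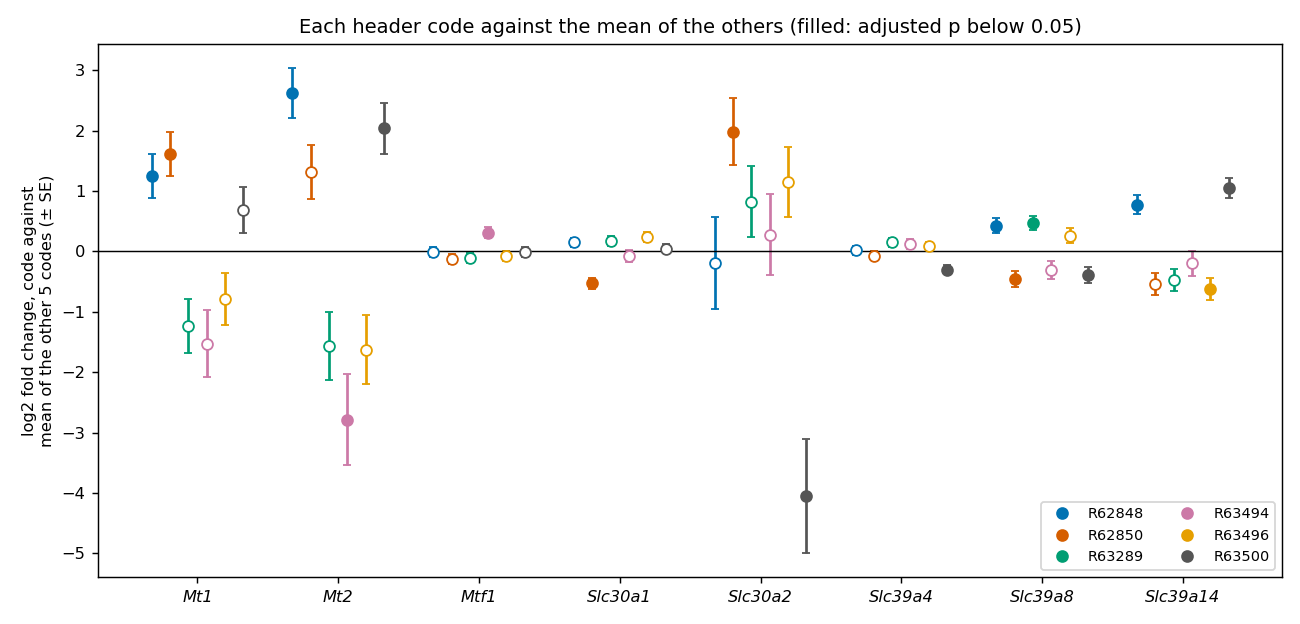
Log2 difference of each code from the mean of the other 5 codes, with its standard error, for the 8 genes; filled points passed the edgeR test at adjusted p below 0.05. The widest called differences are those of Slc30a2 in R63500 (-4.05), Mt2 in R63494 (-2.79) and Mt2 in R62848 (2.62), and the called differences of Mtf1, Slc39a4, Slc30a1 and Slc39a8 lie between -0.53 and 0.47.

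Of the 48 contrasts, 17 were called, 10 higher and 7 lower, and each code had its own combination. The contrasts share libraries and are given side by side. In R62848, 4 genes were higher (Mt2, Mt1, Slc39a14 and Slc39a8) and none lower, where 13.1% of all genes tested were called higher and 8.8% lower. R62850 had 2 higher (Slc30a2 and Mt1) and 2 lower (Slc30a1 and Slc39a8), against 10.6% and 11.2% of all genes. In R63500, 2 were higher (Mt2 and Slc39a14) and 3 lower (Slc30a2, Slc39a8 and Slc39a4), against 11.7% and 7.3%. In R63494, Mtf1 was higher and Mt2 lower, against 8.03% and 8.73%. R63289 had Slc39a8 higher and none lower, against 2.42% and 1.75%, and R63496 had Slc39a14 lower and none higher, against 4.79% lower and 4% higher. Mt1 in R63500 (0.69, SE 0.38, edgeR adjusted p = 0.253) and Mt2 in R62850 (1.31, SE 0.45, edgeR adjusted p = 0.0574) did not pass.

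Levels of different genes were compared per exon length, as RPKM, which is CPM divided by the exon length in kilobases. The median was 269 for Slc39a4, 66.3 for Mt1, 20.8 for Mt2, 8.21 for Slc30a1, 4.22 for Slc39a14, 3.73 for Mtf1, 1.31 for Slc39a8 and 0.179 for Slc30a2. The order was kept between Slc39a4 and Mt1 in 16 of 17 libraries and between Mtf1 and Slc39a8 in 17. Mt1 exceeded Mt2, Mt2 exceeded Slc30a1, and Slc30a1 exceeded Slc39a14, in 15 libraries each. Slc39a14 and Mtf1 were neighbours whose levels crossed: Slc39a14 was the higher in 11 of 17. The one library in which Mt1 was above Slc39a4 reached 385 RPKM of Mt1, R62850_3.

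The wider family, 21 other metallothionein and zinc transporter genes, had 16 members with enough counts to test, of which 10 differed between codes (62.5%, against 42.2% of all genes). The cholangiocyte and fibroblast marker lists, with 100% called in each, also lay above that share, so a higher share was not particular to metal genes. The importers Slc39a7 (ZIP7, of the endoplasmic reticulum and Golgi), Slc39a1 and Slc39a11 led by RPKM, with medians of 74.4, 68.1 and 37.1, all below Slc39a4. Slc39a7 ranged from 164 to 229 CPM and was not called (edgeR adjusted p = 0.199), whereas Slc39a1 and Slc39a11 were (edgeR adjusted p = 0.0406 and 0.00407). Slc39a5, encoding ZIP5, an importer known from pancreas, intestine and liver, had a mean of 22.2 CPM in R62850 and 0.601 to 1.63 in the other codes. In edgeR it was higher in R62850 by 4.33 on the log2 scale (SE 0.46, adjusted p = 4.5e-05), again the code with the acinar marker sums, whose part was not tested. Mt3, the brain metallothionein, was at 0 in 9 libraries and reached 1.28 CPM (19 counts) in R62850_3. Mt4, the metallothionein of stratified epithelia, and Slc30a8, the exporter of insulin granules, had no count in any library. Both were named after their values were seen. Slc39a6 (ZIP6), chosen after its values were seen, was high in the same 2 codes as Slc39a14: its code means were 34.2 CPM in R63500 and 26.5 in R62848, and 12.7 to 18.5 elsewhere (edgeR adjusted p = 7.3e-06 between codes). This was not particular to Slc39a6. Slc39a13, Slc30a4, Slc39a10 and Slc39a1, also looked up afterwards, had their highest code means in these 2 codes. Slc39a11 had its lowest there, 117 CPM in R63500 and 96.2 in R62848, against 123 to 149 elsewhere.

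**Figure D4:**
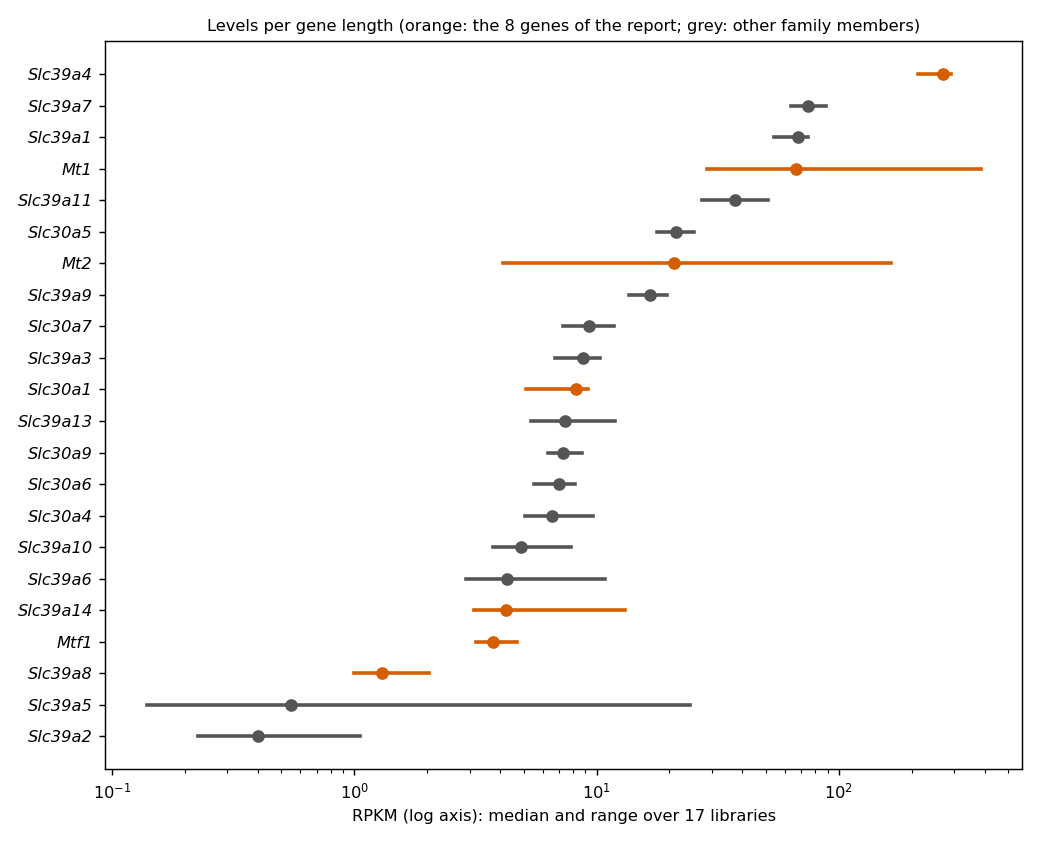
RPKM (log axis) of 7 of the 8 genes (orange) and of other zinc transporters (grey) over the 17 libraries; points are medians and bars the lowest to the highest library. Genes at 0 in some libraries, Slc30a2 among them, are not drawn. Slc39a4 is the highest with a median of 269 RPKM, and Slc39a5 spans 0.14 to 24.3 RPKM, with its highest value in R62850_3.

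Of 14 copper and manganese genes, 12 were called between codes, against 42.2% of all genes tested. Their median range of code means was 0.59 on the log2 scale, below the 0.71 of all genes. Sod1, the copper-zinc superoxide dismutase, had a median of 162 CPM, the copper chaperone Atox1 77.0, and ceruloplasmin (Cp) 707 to 1899. Each was called (edgeR adjusted p = 0.00235, 0.000299 and 8.26e-05). Steap4, a metalloreductase, had code means of 348 CPM in R62848 and 269 in R63500, against 99.6 to 210 elsewhere (edgeR adjusted p = 6.29e-07). Atp7a, the copper exporter, was 30.1 in R62848 and 25.3 in R63500, against at most 21.1 elsewhere (edgeR adjusted p = 0.00585). Both genes were highest in the 2 codes that were also high in Mt2 and Slc39a14. Other genes of the list, all but Sod1 named after their values were seen, went both ways. Slc31a1, Slc31a2 and Slc11a2 also had their highest code means in these 2 codes. Sod1, Ccs, Commd1, Cox17 and Atp7b had their lowest there. Sod1 had 145 CPM in R62848 and 147 in R63500, against 168 to 218 elsewhere.

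Of 8 zinc-binding and metal-induced genes, 7 were called, against 42.2% of all genes tested. Ndrg1, Tgm2 and Txnrd1, named here after their values were seen, were highest in R62848 and R63500, the codes high in Mt2 and Slc39a14. Of all genes tested, 13.1% were called higher in R62848 and 11.7% in R63500. How many genes of the table were highest in both codes was not counted. Ndrg1, a stress-induced gene, had code means of 182 CPM in each of the 2, against 49.0 to 58.7 elsewhere (edgeR adjusted p = 6.45e-09). Tgm2, a transglutaminase, had 598 and 527 CPM, against 390 to 427 (edgeR adjusted p = 0.000154). Txnrd1, a thioredoxin reductase, had 380 and 447, against 286 to 378, so R62848 and R63289 were nearly level (edgeR adjusted p = 2.19e-05). Selenoh and Hmox1, also named after their values were seen, differed from these. Selenoh had 13.6 CPM in R62848 and 15.2 in R63500, and was highest in R63496 (21.4). Hmox1 was highest in R63500 (59.9 CPM) and R63496 (52.1) and was not called (edgeR adjusted p = 0.193). S100a8 and S100a9, the zinc-binding calprotectin subunits of neutrophils, were lowest in R63500, with code means of 93.5 and 111 CPM, and 377 and 484 in R62848 (edgeR adjusted p = 0.000555 and 0.000401). The neutrophil markers, which include both genes, summed to 258 to 468 CPM in R63500 and 566 to 1610 elsewhere, and their part was not tested. Gclc, the rate-limiting enzyme of glutathione synthesis, ranged from 367 to 599 CPM (edgeR adjusted p = 0.0102). R62848 and R63500, both high in Mt2, were the highest and the lowest code for the 2 calprotectin genes.

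Of 8 glucocorticoid-induced genes, 7 were called, against 42.2% of all genes tested. Fkbp5 had code means of 72.9 CPM in R62848 and 62.1 in R63500, against 21.2 to 37.2 in the others (edgeR adjusted p = 1.07e-07). Tsc22d3 was instead highest in R62850 (204 CPM) and R62848 (172), with 162 in R63494 and 119 in R63500 (edgeR adjusted p = 2.61e-06). Per1 likewise was 140 CPM in R62850, 121 in R63494 and 98.4 in R63500 (edgeR adjusted p = 1.93e-06). Zbtb16 had its highest mean in R63500, 6.38 CPM (edgeR adjusted p = 0.000822), and Cebpd in R62848, 90.6 CPM (edgeR adjusted p = 0.00222). These 5 genes had their lowest code mean in R63289, a code with low Mt1 and Mt2. For Cebpd, R63289 was nearly level with R63500 (57.8 against 58.2 CPM). The other 3 of the list, named after their values were seen, were not lowest in R63289. Sgk1 and Dusp1 were lowest in R63494 (16.3 and 37.9 CPM) and Klf9 in R62850 (40.8 CPM), and Dusp1 was the gene not called (edgeR adjusted p = 0.467). R63494, also low in Mt1 and Mt2, had more Tsc22d3 and Per1 than R63500. A relation of the glucocorticoid-induced genes to Mt1 or Mt2 was not tested.

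The acute phase and heat shock lists had wider median ranges than the 8 genes (1.06) or all genes tested (0.71). Of 12 acute phase genes 10 were called, with a median range of code means of 2.83 on the log2 scale, and all 10 heat shock genes, with 2.26, against 42.2% of all genes called. Lcn2 and Lrg1, the most abundant acute phase genes by RPKM along with Saa3, were not called (edgeR adjusted p = 0.348 and 0.87). Hspa1a and Hspa1b, the inducible HSP70 genes, reached 583 and 1286 CPM in R63494_2, the library with the lowest Mt2. Hspa8, Hsp90aa1 and Hspd1 also had their highest code means in R63494, at 1705, 958 and 371 CPM. R63289 and R63496, also low in Mt2, had the lowest code means of Hspa1a (8.51 and 10.1 CPM) and Hspa1b (29.5 and 29.1). The relation of these genes to Mt2 was not tested. Hspd1, a mitochondrial chaperone, was highest of all libraries in R63500_2 (509 CPM), and its code mean in R63500 was 348.

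The genes whose pattern was most like that of each member were found by the smaller of 2 Pearson correlations, over the 6 code means and over deviations of the 17 libraries within codes. They were sought among 16016 genes with a median of at least 1 CPM, share libraries and scaling, and are a description. For Mt1 they were Slc7a5 (0.882), Pycr1 (0.861), Fkbp11 (0.854), Pip4k2b (0.839) and Mt2 (0.829). For Mt2 they were Slc7a5 (0.923), Phgdh (0.871), Psat1 (0.846), Sgk1 (0.835) and Gimap4 (0.831), with Mt1 at place 6. Slc7a5, an amino acid transporter, led both lists. Slc39a14 was most like Egfr (0.918), Kpnb1 (0.900) and Lamc1 (0.888). Slc30a1 was most like Zfp953 (0.845), its antisense neighbour 1700034H15Rik (0.835) and Zfp109 (0.826). For Slc30a2 they were Igsf1 (0.826), Nucb2 (0.794) and Pkd1l2 (0.785), and for Slc39a4 Klra17 (0.856), Pilrb1 (0.784) and Cnep1r1 (0.781). Slc39a8 was most like 1700066B19Rik (0.711), Zfp185 (0.702) and Trpt1 (0.688), and Mtf1 most like Gripap1 (0.720), Dpp9 (0.704) and Dda1 (0.651), the weakest values of the set.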

How the data were processed

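Total RNA of 17 mouse bile duct samples was measured by RNA-seq. The authors deposited whole-number read counts per gene, not normalized, with gene position and exon length. Per the submitters' processing notes, the build was mm10 and the tools included STAR 2.6.1c, featureCounts and edgeR 3.40.2. The sources used here give neither the annotation release nor the strand setting. Count columns matched the single group, not single samples. A further 17 columns of per-sample values were not used.

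Genes were kept with filterByExpr and the code design (19412 genes), scaled by TMM, and tested in edgeR 4.0.16 (R 4.3.3) with robust quasi-likelihood F tests, for any difference between codes and for each code against the mean of the other 5. Adjusted p-values are Benjamini-Hochberg values over all genes kept. CPM (counts per 1000000) use TMM-scaled counts of kept genes, RPKM the table's lengths, and log2 CPM a prior count of 2. The coefficient of variation within codes was 17.5%. Correlations used exact permutation within codes. The test script was tested on simulated data.

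The members, the gene lists and the naming rule were chosen with earlier results of these data known. From each pathway list the text names up to 3 genes with the highest median RPKM and 2 with the widest range of code means among those called, and for each member the 3 most similar genes (5 for Mt1 and Mt2). Genes named outside this rule are marked in the text. Sequences came from GENCODE M21 (GRCm38) and the RefSeq promoter table; 2 list genes were matched by identifier. Alternatives were RLE factors, library totals, DESeq2 1.42.0, 2 other filters, leaving out each library, and leaving out code R62850.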

Additional observations from a re-analysis of the deposited data

How the results depend on the processing

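No called contrast of the set reversed its direction under any alternative. The count of genes differing between codes was 8194, with 7188 to 8531 when 1 library was left out and 6894 to 9529 under the other alternatives. Leaving out 1 library gave 2336 to 4713 genes for R62848 (4250 with all), 2418 to 4667 for R62850 (4225), 318 to 915 for R63289 (809), 1737 to 3710 for R63494 (3253), 550 to 2344 for R63496 (1707) and 2045 to 4091 for R63500 (3680). The counts moved over 1.5 times without R62848_2 (2336) or R62848_3 (2611), R62850_1 (2418) or R62850_2 (2767), R63289_1, R63289_2 or R63289_3 (318, 332 and 393), R63494_1 or R63494_2 (1737 and 1827), R63496_2 or R63496_3 (550 and 1101) and R63500_2 (2045), each time for the library's own code. Without code R62850, 2843 genes were called for R63496. Of the set, 7 of 8 genes were called between codes with RLE factors, library totals, DESeq2 and no filter, 6 of 7 with the intercept-only filter, which drops Slc30a2, and 6 of 8 without R62850. Of the contrasts, 17 were called, against 24 with DESeq2, 13 with no filter and 13 to 18 with 1 library left out. The Mt1 share gave a permutation p of 5e-05 to 0.00073 with 1 library left out and 0.00103 without R62850. No pair of genes passed in the correlations under the 3 alternatives tried. Leaving out an R63494 library leaves 1, which is assumed to vary like the others. The planned use of the FPKM that the authors deposited was not run, because those columns could not be tied to samples beside the counts. Slc30a2, with a median of 14 counts, is the gene that depth limits.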
